A study of Mus musculus with 6 samples.

Results

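The 28 genes described here encode enzymes of cholesterol and fatty acid synthesis and the proteins that control their transcription. They were taken by symbol from a deposited table of 17189 genes, and all 28 were present. They fall into 4 groups by role. Acly and 6 enzymes of the mevalonate route form the first, 11 enzymes that turn farnesyl units into cholesterol the second, 3 genes of the SREBP system the third, and 7 enzymes of fatty acid synthesis, elongation and desaturation the fourth.

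The material was ureteric bud (UB) cells, the epithelium that branches into the collecting system of the kidney, sorted by fluorescence from mouse embryos at E16.5 and read by RNA sequencing. The conditional knockout (cKO) group had 3 libraries of genotype Hoxb7Cre-GFP+ with both Ash2l alleles floxed (Ash2l F/F). The control group had 3 libraries of genotype Hoxb7Cre-GFP+ with a single floxed allele (Ash2l F/+). Both groups therefore carried the Cre-GFP transgene, driven by the Hoxb7 promoter of the UB lineage, and neither group was free of a floxed allele. All embryos were untreated. The labels number the libraries as biological replicates and do not say whether each is an embryo or a pool, so any p-value here measures spread among libraries, which may be partly technical. ASH2L belongs to the MLL/SET1 family of histone methyltransferase complexes, which place H3K4 methylation at active promoters.

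Cells make cholesterol from acetyl-CoA through mevalonate, farnesyl diphosphate, squalene and lanosterol. The membrane-bound transcription factors SREBP-2 and SREBP-1, encoded by Srebf2 and Srebf1, raise the transcription of these enzymes and of fatty acid synthesis enzymes. When sterols are abundant, INSIG proteins hold SREBPs in the endoplasmic reticulum, so genes of the sterol route often move together. Growing epithelia need both products for new membrane, and cholesterol is also attached to hedgehog proteins, which take part in kidney and ureter development.

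Ash2l, the targeted gene, was at 46.1, 29.7 and 21.4 CPM (counts scaled to library size with TMM factors) in the cKO libraries and at 189.8, 176 and 159 CPM in the control libraries, which is -2.43 on the log2 scale (SE 0.284, edgeR adjusted p = 0.00786) and -2.22 without cKO replicate 3. Library totals ranged from 9620235 to 10538314 counts. The library of cKO replicate 3 stood apart: it held no read of 12.4% of 11738 genes that had over 10 counts in all 5 others, against at most 0.0297% by the same measure in those. Of the 28 genes, Tm7sf2, Acaca and Scd1 were at 0 in it, so fitted changes are given with and without this library. Summed UB markers were lower in cKO, at 6061 to 6986 CPM against 10480 to 11700 CPM in controls, and 5 of 11 fell. In the same edgeR fit 3.59% of all genes tested fell and 3.52% rose. Summed nephron epithelium and podocyte markers were at 49.5 to 82.7 CPM in cKO and 17.4 to 25.3 CPM in controls, with 1 of 5 tested risen and Nphs1 at 0 in all controls. Summed smooth muscle markers were at 105 to 204 CPM in cKO and 4.40 to 10.7 CPM in controls, and all 3 tested rose. Nephron progenitor markers summed to 17.2 to 18.4 CPM in cKO and 7.23 to 11.5 CPM in controls, with none called with 6 libraries. Sums of stroma, endothelium, immune and red blood cell markers overlapped between groups. Red blood cell markers summed to 404 CPM in control replicate 3, against 0.687 and 1.05 CPM in the other controls. Reads of the Y-linked genes Ddx3y, Uty and Kdm5d were absent from every cKO library and present in every control. Y-linked Eif2s3y had 0, 0 and 504 counts in cKO and 736, 815 and 439 counts in controls. These reads do not settle the sex of cKO replicate 3. Without cKO replicate 3, cKO libraries with no read of these genes are set against controls that all have them. Effects of embryo sex and of genotype therefore cannot be told apart. The part of these differences in the results on lipid genes was not tested. In bulk RNA, fewer cells of a type and less RNA per cell cannot be told apart.

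With 6 libraries, edgeR tested 27 of the 28 genes (Scd1 was too low), and 1 fell: Scd2, a stearoyl-CoA desaturase, at 0.516 of the control level. None of the 27 rose, and none had an unadjusted p under 0.05 in that direction; 8 had one with a negative fold change. Over all 13047 genes tested, 7.11% were called (3.59% fell and 3.52% rose), so the share of members called was not above that of all genes. An unadjusted p under 0.05 with a negative change was found for 11.1% of all genes. Without cKO replicate 3, 11 of 28 fell (Scd2, Fads1, Elovl6, Fads2, Fdps, Hmgcs1, Sqle, Cyp51, Msmo1, Srebf1 and Srebf2). Scd1 was called higher there, but it passed the filter on low counts only through the cKO libraries. Over 13660 genes in that comparison, 28.5% were called (14.9% fell and 13.7% rose). Both comparisons use the same controls and share 5 libraries, so they are not independent. With all 6 libraries, DESeq2 called 7 of these 11 as fallen, and 7.82% of all genes. A limma-voom fit with library weights, in which cKO replicate 3 had a weight of 0.0685, called all 11, and 13.4% of all genes. Neither tool called a rise among the 27, while 7.89% of all genes rose by DESeq2 and 12.2% by limma-voom with weights.

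**Figure D1:**
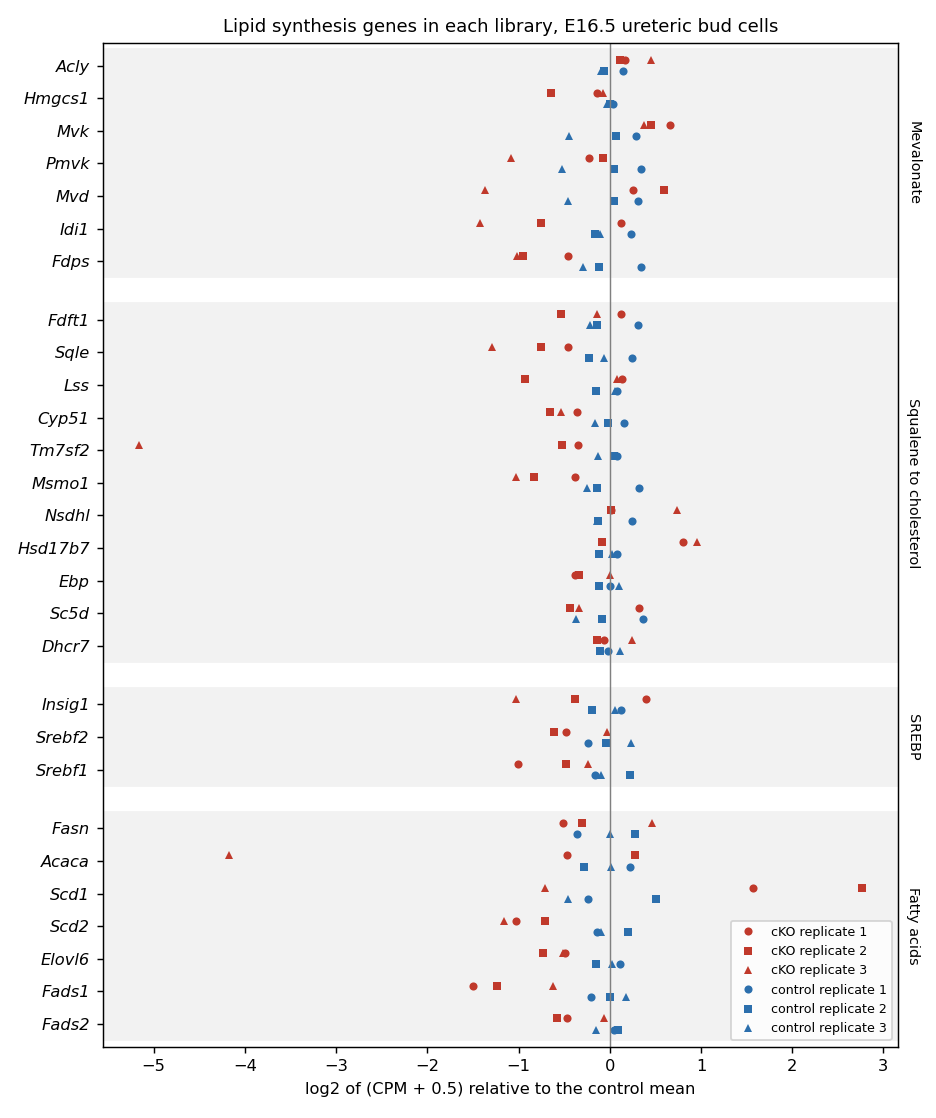
Level of each of the 28 genes in each library, as log2 of (CPM + 0.5) relative to the control mean (horizontal axis), grouped by role; red points are cKO and blue points control libraries, with a symbol for each replicate. Of 27 tested genes, 10 have every cKO point left of every control point, and the triangles of cKO replicate 3 lie far to the left for Tm7sf2 and Acaca, which had 0 counts there.

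Of the 27 tested genes, 10 had a lower CPM in every cKO library than in any control, and 1, Mvk, had a higher CPM in every cKO library. Among all genes tested, 20.7% lay entirely below and 16.7% entirely above. The 10 were Hmgcs1 and Fdps of the mevalonate route, Sqle, Cyp51, Tm7sf2 and Msmo1 of the later sterol steps, Srebf1, and Scd2, Elovl6 and Fads1 of the fatty acid enzymes. The median log2 fold change of the 27 was -0.35 with 6 libraries, against -0.04 over all genes tested, and 21 of 27 were negative, against 52.3% of all genes. Without cKO replicate 3 the median over 28 genes was -0.34, against 0.01 over all genes, and 21 of 28 were negative, against 49.3%. These medians describe a list chosen with results of these data known.

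In the mevalonate group, fitted changes ran from -0.79 for Fdps to 0.51 for Mvk. With 6 libraries edgeR called none of the 7 genes, and 1, Fdps, had an unadjusted p under 0.05; DESeq2 called 1 and limma-voom with weights 2, all as fallen. Fdps encodes farnesyl diphosphate synthase, whose product feeds both sterols and protein prenylation. It was at 119, 84.3 and 80.4 CPM in the cKO libraries, against 207, 151 and 133 CPM in controls. The groups did not overlap, although control replicate 1 was well above the other controls. Fdps changed by -0.79 (SE 0.225, edgeR adjusted p = 0.0904), and by -0.69 without cKO replicate 3 (SE 0.202, adjusted p = 0.0279), where the fall was called.

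Hmgcs1, which makes HMG-CoA from acetyl units, was at 208, 147 and 218 CPM in cKO libraries and 235, 229.6 and 225 CPM in controls. The controls lay close together, and cKO replicate 2 was the low library. It changed by -0.27 (SE 0.158, edgeR adjusted p = 0.377). With cKO replicate 3 left out, Hmgcs1 fell by 0.38 (SE 0.134, edgeR adjusted p = 0.0462). The other 5 genes of this group were called in neither comparison. Acly, which cleaves citrate into cytosolic acetyl-CoA, was at 464, 449 and 568 CPM in cKO libraries and 460.2, 396 and 387 CPM in controls (0.25, SE 0.125, edgeR adjusted p = 0.294, and 0.13 without cKO replicate 3). Mvk, mevalonate kinase, was at 39.6, 34.2 and 32.4 CPM in cKO libraries and 30.3, 26.0 and 18.1 CPM in controls. All cKO values of Mvk were above all control values, but the difference was not called (0.51, SE 0.262, edgeR adjusted p = 0.305, and 0.56 without cKO replicate 3).

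The groups overlapped for the remaining mevalonate genes. Pmvk and Mvd encode the next kinase and the decarboxylase that yields the isoprene unit, and Idi1 the isomerase of that unit. Mvd was at 43.2, 54.9 and 13.7 CPM in cKO libraries and 45.0, 37.3 and 26.1 CPM in controls. Idi1 was at 72.2, 39.1 and 24.3 CPM in cKO libraries and 77.8, 59.4 and 61.6 CPM in controls. In both genes cKO replicate 3 was the lowest library. Fitted changes were -0.41 for Pmvk (SE 0.353), 0.05 for Mvd and -0.55 for Idi1 (SE 0.386). Leaving out cKO replicate 3 gave -0.16 for Pmvk (SE 0.232), 0.43 for Mvd (SE 0.2196) and -0.26 for Idi1 (SE 0.231).

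Among the 11 later enzymes of cholesterol synthesis, Sqle, Cyp51 and Msmo1 showed the smallest p-values, all with negative changes. With 6 libraries edgeR called none of the 11, with 3 at an unadjusted p under 0.05; DESeq2 called these 3 as fallen, as did limma-voom with weights. Sqle encodes squalene epoxidase, the enzyme that commits squalene to sterols. It was at 147, 119.8 and 81.9 CPM in cKO libraries and 239.9, 172 and 193 CPM in controls. The groups did not overlap, and cKO replicate 3 was the lowest. Sqle changed by -0.80 (SE 0.235, edgeR adjusted p = 0.0985), and leaving out that library gave a fall of 0.61 (SE 0.146, adjusted p = 0.00728).

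Cyp51, the lanosterol demethylase, was at 122, 98.8 and 108 CPM in cKO libraries and 175, 154 and 139.6 CPM in controls. It had a similar change with either set of libraries: -0.51 with 6 (SE 0.136, edgeR adjusted p = 0.0737) and -0.51 without cKO replicate 3 (SE 0.133, adjusted p = 0.0110). Msmo1, a methylsterol monooxygenase of the next steps, was at 123.3, 89.9 and 78.6 CPM in cKO libraries and 201, 145 and 135 CPM in controls. Again no cKO library reached the lowest control. Msmo1 changed by -0.72 (SE 0.225, edgeR adjusted p = 0.113), and in the 5 libraries without cKO replicate 3 the fall was 0.60 (SE 0.184, adjusted p = 0.0318). Leaving out control replicate 1, the highest control for Fdps, Sqle, Cyp51 and Msmo1, gave changes of -0.59, -0.66, -0.43 and -0.53, with edgeR adjusted p between 0.240 and 0.318.

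The sequences just upstream of the start sites of 3 sterol genes are shown. Cyp51 and Msmo1 had the smallest p-values among sterol genes with a sequence in the RefSeq promoter table (GRCm38.p6). Of the genes with a sequence, Hmgcs1 alone held an exact match to TCACNCCAC, the form of the sterol element searched for. Of the 28 genes, 22 matched that table by symbol. Each run covers the 180 bases before the annotated start, 5′ to 3′ on the gene's strand. Motif matches on either strand are in capitals, and none of those printed overlap. Hmgcs1 lies at chr13:119690171-119690350 (plus strand), Cyp51 at chr5:4104698-4104877 (minus strand) and Msmo1 at chr8:64733579-64733758 (minus strand). The counts were made on another build, GRCm39, per the submitters' processing notes.
Hmgcs1: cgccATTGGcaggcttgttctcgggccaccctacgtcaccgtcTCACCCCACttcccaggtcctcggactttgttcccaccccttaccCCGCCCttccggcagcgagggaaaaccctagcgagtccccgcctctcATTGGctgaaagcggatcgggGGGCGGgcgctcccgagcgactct
Cyp51: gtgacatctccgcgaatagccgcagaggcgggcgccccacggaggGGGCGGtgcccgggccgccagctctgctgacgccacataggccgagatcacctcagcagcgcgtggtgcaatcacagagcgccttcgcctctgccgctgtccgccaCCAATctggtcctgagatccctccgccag
Msmo1: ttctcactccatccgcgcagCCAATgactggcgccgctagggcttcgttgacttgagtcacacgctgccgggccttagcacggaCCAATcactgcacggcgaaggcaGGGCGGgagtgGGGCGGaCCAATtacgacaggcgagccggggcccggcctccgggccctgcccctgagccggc

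The 250 bases before each start were searched on both strands for TCACNCCAC (a sterol regulatory element), CACGTG (an E-box), CCAAT (the NF-Y box) and GGGCGG (the GC box of SP1). The sterol element was found in 1 of the 22 genes, Hmgcs1, 137 bases before the start as TCACCCCAC, and in 1.22% of the 27025 genes in the table. The CCAAT box was found in 18 of 22 genes, against 37.5% of all genes, and the GC box also in 18, against 35.4%. CACGTG was found in 4 (Dhcr7, Hsd17b7, Insig1 and Sc5d), against 6.86% of all genes. A gene with several annotated starts was counted if any of them had a match. In Dhcr7 the E-box and the CCAAT boxes lay before different starts. For some genes, among them Acaca, no start searched was the outermost one. The shares of all genes include genes not tested for expression here. In Fasn, a pair of CCAAT boxes on opposite strands overlapped. The windows of Elovl6 and Acaca held none of the 4 motifs. A match in these letters describes the sequence and does not show binding. Only exact matches were searched, so a gene without a match may still hold a variant form of an element.

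The other 8 sterol enzymes were not called in either comparison. Tm7sf2, a sterol C14 reductase, was at 13.6, 11.98 and 0 CPM in cKO libraries and 18.5, 18.0 and 15.8 CPM in controls. Its large fitted change of -1.03 (SE 1.33) carried the 0 of cKO replicate 3, and it was -0.46 without that library (SE 0.256, edgeR adjusted p = 0.205). The floor that 3 counts set in that library is 0.306 CPM, and covers counting error only. Hsd17b7, a sterol ketoreductase, was at 46.5, 24.9 and 51.9 CPM in cKO libraries and 28.0, 24.4 and 27.0 CPM in controls. The cKO libraries of Hsd17b7 were far apart, and the change of 0.64 was not called (SE 0.306, edgeR adjusted p = 0.279, and 0.42 without cKO replicate 3).

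Fdft1 and Lss, which make squalene and lanosterol, had changes of -0.16 (SE 0.216) and -0.16 (SE 0.300). Lss was at 55.5, 26.3 and 53.3 CPM in cKO libraries and 53.2, 45.3 and 52.6 CPM in controls, so cKO replicate 2 alone was low. The enzymes nearest to cholesterol, Sc5d and Dhcr7, changed by -0.11 (SE 0.273) and 0.02 (SE 0.195). Nsdhl, a dehydrogenase, and Ebp, a sterol isomerase, are both X-linked. Nsdhl was at 48.6, 48.5 and 80.5 CPM in cKO libraries and 56.8, 43.9 and 43.4 CPM in controls, with cKO replicate 3 alone high (0.30, SE 0.256). Ebp changed by -0.23 (SE 0.218). With cKO replicate 3 left out the changes were -0.18 for Fdft1, -0.31 for Lss, -0.014 for Sc5d, -0.11 for Dhcr7, 0.008 for Nsdhl and -0.37 for Ebp. A p above the threshold does not show that these genes were unaltered.

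**Figure D2:**
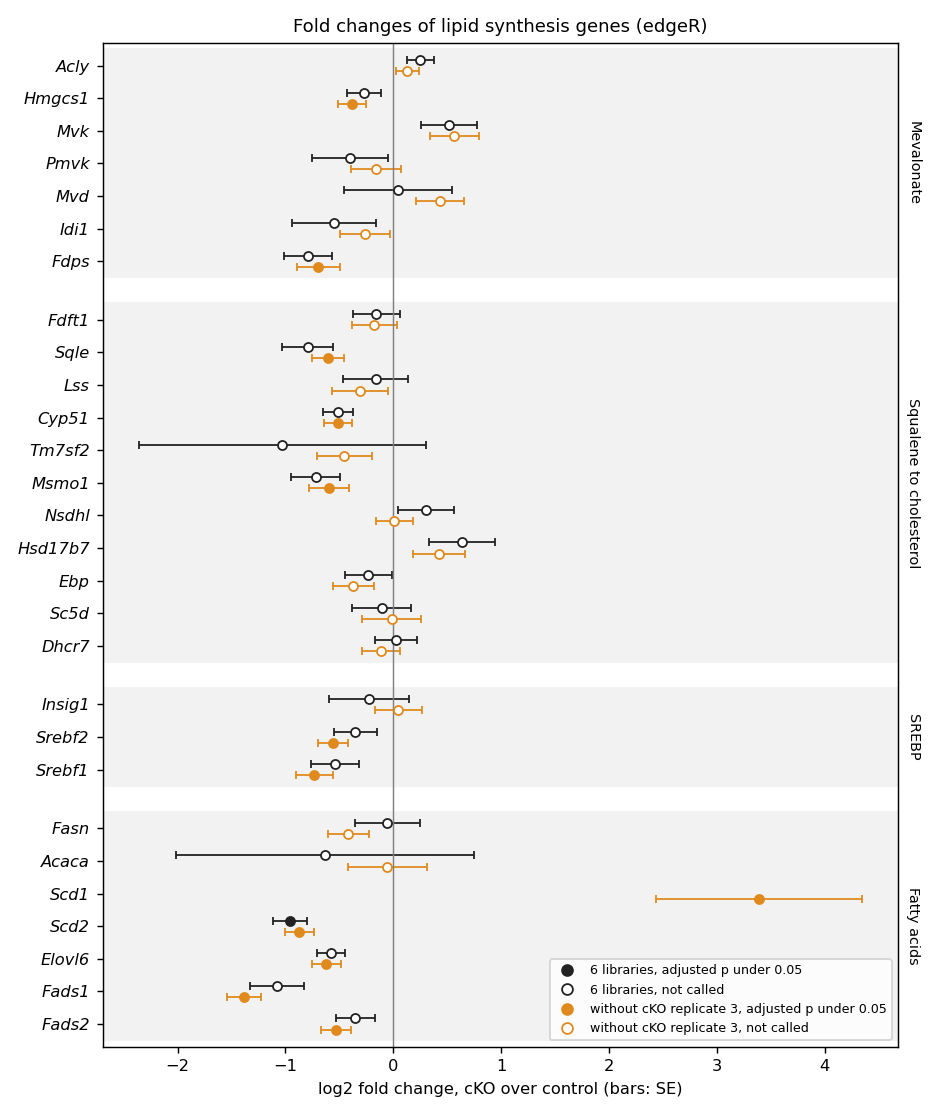
Log2 fold change of each gene, cKO over control, from edgeR (horizontal axis; bars are SE), with 6 libraries in black and without cKO replicate 3 in orange; filled points have an adjusted p under 0.05. Scd2 alone is filled in black, 12 genes are filled in orange, and the bars of Tm7sf2 and Acaca shorten most when cKO replicate 3 is left out. One of the orange points is Scd1, which had low counts and passed the filter only through the cKO libraries.

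The genes for both SREBP proteins were lower in cKO replicates 1 and 2 than in any control. Srebf1 was at 53.5, 77.6 and 91.8 CPM in cKO libraries and 96.5, 126 and 101 CPM in controls. All cKO values lay below all controls, with cKO replicate 3 the nearest. The change was -0.54 (SE 0.224, edgeR adjusted p = 0.210), and without cKO replicate 3 Srebf1 fell by 0.73 (SE 0.173, adjusted p = 0.00669). Srebf2 was at 101, 91.7 and 138 CPM in cKO libraries and 119.7, 137 and 166 CPM in controls. For Srebf2, cKO replicate 3 lay inside the control range. The change was -0.35 (SE 0.200, edgeR adjusted p = 0.356), and Srebf2 fell by 0.56 without that library (SE 0.142, adjusted p = 0.00962). With 6 libraries edgeR called none of the 3 genes, with 1 at an unadjusted p under 0.05; DESeq2 called none and limma-voom with weights called Srebf1 and Srebf2 as fallen.

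Insig1, the sterol-sensing retention protein and itself a target of SREBP, was at 52.8, 30.7 and 19.4 CPM in cKO libraries and 43.8, 34.9 and 41.6 CPM in controls. Its cKO libraries spread above and below the controls. The fitted change was -0.23 with 6 libraries (SE 0.370) and 0.05 without cKO replicate 3 (SE 0.222), not called in either.

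Scd2, Elovl6 and Fads1 of the fatty acid group had the smallest p-values among the 28 genes; Fads2, Fasn and Acaca overlapped between groups. With 6 libraries, 6 of the 7 fatty acid genes were tested, and 1 fell. Scd2, the stearoyl-CoA desaturase that makes oleic from stearic acid in many non-hepatic tissues, was at 178, 222 and 162 CPM in cKO libraries and 330.5, 419 and 341 CPM in controls. The highest cKO library was well under the lowest control. Scd2 fell by 0.96 on the log2 scale (SE 0.156, edgeR adjusted p = 0.0193). The fall was 0.87 when cKO replicate 3 was left out (SE 0.133, edgeR adjusted p = 0.000326). Scd2 was also called when cKO replicate 2 was left out (edgeR adjusted p = 0.0403). It was not called without any single one of the other 4 libraries, where the edgeR adjusted p reached 0.0803 (control replicate 2 left out).

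Fads1, a desaturase of long polyunsaturated fatty acids, had the most negative fitted change of the tested genes of this group, though it missed the threshold. It was at 38.7, 46.7 and 71.9 CPM in cKO libraries and 96.2, 111 and 125 CPM in controls. No cKO library reached the controls, and cKO replicate 3 was the nearest. The change was -1.08 (SE 0.252, edgeR adjusted p = 0.0526), and Fads1 fell by 1.38 without that library (SE 0.157, adjusted p = 3.18e-05). Its neighbour in the same pathway, Fads2, was at 62.0, 57.4 and 82.1 CPM in cKO libraries and 88.4, 91.6 and 77.1 CPM in controls. Fads2 overlapped with the controls through cKO replicate 3, at -0.35 (SE 0.178, edgeR adjusted p = 0.302), and fell by 0.53 without it (SE 0.141, adjusted p = 0.0124).

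Elovl6, which lengthens palmitic to stearic acid and so supplies the substrate of SCD enzymes, was at 82.3, 69.7 and 81.2 CPM in cKO libraries and 125, 104 and 118 CPM in controls. The 3 cKO values were close together and clear of the controls. The change of -0.58 was just short of the threshold (SE 0.134, edgeR adjusted p = 0.0512), and with cKO replicate 3 left out Elovl6 fell by 0.62 (SE 0.134, adjusted p = 0.00374).

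Fasn, the fatty acid synthase, was at 45.9, 53.4 and 91.0 CPM in cKO libraries and 51.3, 80.1 and 66.2 CPM in controls. Its groups overlapped widely, and the change was -0.05 (SE 0.302), or -0.42 without cKO replicate 3 (SE 0.189, edgeR adjusted p = 0.117). Acaca, acetyl-CoA carboxylase alpha, had 59, 103 and 0 counts in cKO libraries and 102, 73 and 88 counts in controls. With the library at 0 left out its change was -0.06 (SE 0.365). Scd1, a second stearoyl-CoA desaturase, had 19, 50 and 0 counts in cKO libraries and 2, 7 and 1 counts in controls. It did not pass the filter on low counts with 6 libraries. Without cKO replicate 3 it passed only through the cKO libraries and was called higher (edgeR adjusted p = 0.0174), a call that its own selection favours. It was not called without any single control, where the edgeR adjusted p reached 0.716. With at most 7 counts in a control, its fold is plotted in the figures but not given in the text. Scd1 and Scd2 are similar in sequence, and the sources used here do not say how reads that match both were counted. In FPKM, a scale that allows for gene length, Scd1 averaged 0.491 ± 0.543 in cKO and 0.0656 ± 0.0629 in controls, against 34.8 ± 6.08 in cKO and 65.7 ± 9.48 in controls for Scd2 (SD, n = 3 each).

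Summed over the 7 fatty acid genes, FPKM was 83.7, 95.1 and 103 in cKO libraries and 143, 166 and 148 in controls. Over the 11 later sterol genes it was 245, 196 and 205 in cKO libraries and 331, 261 and 255 in controls. Over the mevalonate group it was 272, 231 and 226 in cKO libraries and 336, 278 and 244 in controls. Over the 3 SREBP genes it was 48.4, 44.8 and 51.8 in cKO libraries and 56.6, 63.1 and 64.2 in controls. The fatty acid, later sterol and SREBP sums did not overlap between groups, and the mevalonate sums did. These sums are led by a few highly expressed genes: Fdps averaged 65.4 ± 13.4 FPKM in cKO and 110.1 ± 26.0 FPKM in controls, and Acly 63.7 ± 8.87 FPKM in cKO and 52.0 ± 5.01 FPKM in controls (SD, n = 3 each). Scd2 leads the fatty acid sum, at 34.8 FPKM in cKO and 65.7 FPKM in controls. Fads1 averaged 15.4 FPKM in cKO and 31.4 FPKM in controls. Fasn averaged 6.17 ± 2.41 FPKM in cKO and 6.22 ± 1.41 FPKM in controls (SD, n = 3 each). Its cKO libraries were at 4.36, 5.24 and 8.91 FPKM, so the similar means rest on cKO replicate 3. The sum does not describe each fatty acid gene. At the other end, Acaca averaged 0.537 ± 0.518 FPKM in cKO and 0.808 ± 0.141 FPKM in controls.

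**Figure D3:**
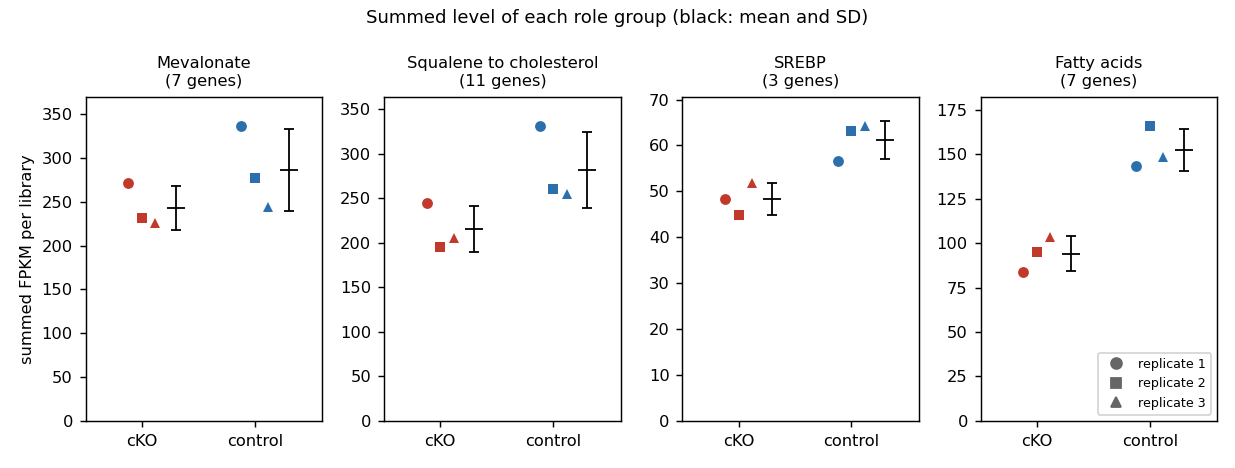
Summed FPKM of each role group per library (vertical axes, from 0); red points are cKO libraries and blue points controls, with a symbol for each replicate and the mean and SD in black. The fatty acid group is at 83.7 to 103 in cKO and 143 to 166 in controls, and control replicate 1 is the highest control in both sterol groups.

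Genes that complete these pathways were read from 6 further lists of 61 genes, of which 60 were tested. With 6 libraries 1 fell and 3 rose, against 3.59% and 3.52% of all genes. Without cKO replicate 3, 18 fell and 8 rose, against 14.9% and 13.7% of all genes. In the list of other sterol synthesis genes, Lbr fell. It encodes the lamin B receptor, which is also a sterol C14 reductase and so catalyses the same step as the Tm7sf2 product. Lbr was at 71.7, 76.0 and 69.1 CPM in cKO libraries and 155, 174 and 152 CPM in controls. It fell by 1.15 (SE 0.113, edgeR adjusted p = 0.00571), and Lbr was called with any single library left out (adjusted p at most 0.0424). With cKO replicate 3 left out the fall was 1.13. Acat2, which condenses acetyl-CoA units before Hmgcs1, was at 194, 148 and 199.6 CPM in cKO libraries and 265, 225 and 265 CPM in controls. Its change was -0.48 (SE 0.144, edgeR adjusted p = 0.104), and leaving out cKO replicate 3 gave a fall of 0.57 (SE 0.131, adjusted p = 0.00561).

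By edgeR with 6 libraries, Npc2 rose and none fell among 11 genes of sterol uptake, transport and efflux. Of these, 8 had a negative change, and the median was -0.28. DESeq2 called 1 risen and 1 fallen, and limma-voom with weights 1 and 3. Without cKO replicate 3, edgeR called 1 risen and 4 fallen, against 13.7% and 14.9% of all genes. NPC2 carries cholesterol out of lysosomes, and Npc2 was at 194, 219.9 and 219.7 CPM in cKO libraries and 148, 144 and 150.2 CPM in controls (0.52, SE 0.0983, edgeR adjusted p = 0.0296, and 0.48 without cKO replicate 3). Among 8 tested regulators of SREBP and LXR, Nr1h2, which encodes the sterol receptor LXR-beta, rose. It was at 153, 165 and 195 CPM in cKO libraries and 99.7, 84.2 and 86.8 CPM in controls (0.92, SE 0.137, edgeR adjusted p = 0.0145, and 0.81 without cKO replicate 3). The calls of Npc2 and Nr1h2 remained in 2 of 6 tests with a library left out, and their highest adjusted p was 0.144 and 0.0879.

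**Figure D4:**
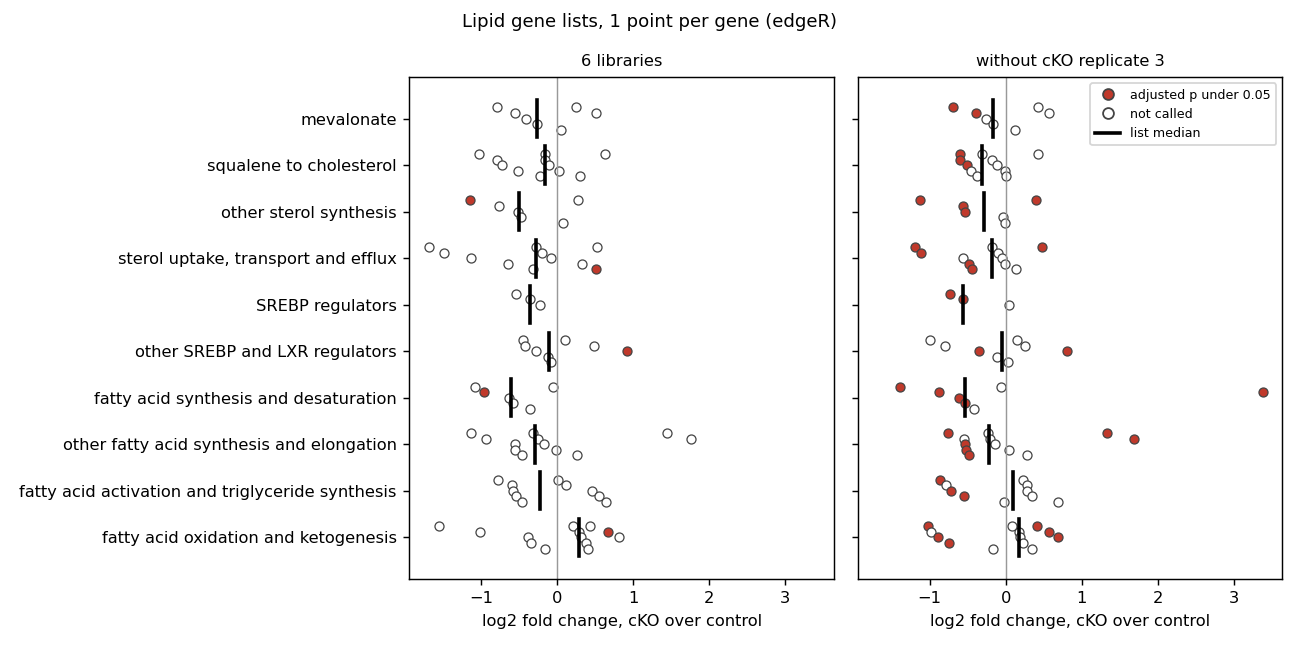
Log2 fold change, cKO over control, of each tested gene (points) in 10 lists of lipid genes, with 6 libraries on the left and without cKO replicate 3 on the right; red points have an edgeR adjusted p under 0.05 and black bars are list medians. With 6 libraries the bars run from -0.60 for fatty acid synthesis and desaturation to 0.28 for fatty acid oxidation and ketogenesis. Scd1, which had low counts, is plotted on the right only.

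None of 12 other genes of fatty acid synthesis and elongation was called by edgeR with 6 libraries, and 4 had an unadjusted p under 0.05; DESeq2 called 2, both risen. These were Acss2 and Acacb, both higher in every cKO library. Acss2 makes acetyl-CoA from acetate and was at 20.6, 24.0 and 45.2 CPM in cKO libraries and 6.19, 8.09 and 12.1 CPM in controls (1.77, SE 0.444, edgeR adjusted p = 0.0648). Acacb encodes the carboxylase whose malonyl-CoA restrains fatty acid entry into mitochondria, and was at 44.7, 44.3 and 23.8 CPM in cKO libraries and 10.9, 11.4 and 18.9 CPM in controls (1.45, SE 0.371, adjusted p = 0.0675). Neither gene overlapped between groups, and both rose without cKO replicate 3, by 1.33 (SE 0.305, adjusted p = 0.00539) and 1.69 (SE 0.247, adjusted p = 0.000238). Without that library 4 genes of the list also fell: the elongase genes Elovl1, Elovl5 and Elovl7, by 0.53, 0.53 and 0.76, and Slc25a1, the mitochondrial citrate carrier, by 0.48 (edgeR adjusted p between 0.00701 and 0.0319). These 4 were chosen after their values were seen. In that comparison 14.9% of all genes fell and 13.7% rose.

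In the list of fatty acid oxidation and ketogenesis, 1 of 13 rose and none fell, against 3.52% and 3.59% of all genes. The median was 0.28. Hadha, the alpha subunit of the mitochondrial trifunctional protein, was at 221, 238 and 217 CPM in cKO libraries and 138, 135 and 151 CPM in controls. It rose by 0.67 (SE 0.0981, edgeR adjusted p = 0.0133), and the call remained in 2 of 6 tests with a library left out (highest adjusted p 0.0806). Its change without cKO replicate 3 was 0.69. Without cKO replicate 3, 3 of the 13 rose and 3 fell, against 13.7% and 14.9% of all genes. Of the 10 genes of fatty acid activation and triglyceride synthesis, edgeR called none, with 2 at an unadjusted p under 0.05, and DESeq2 called 1. Acsl3, an acyl-CoA synthetase of lipid droplets, was at 83.3, 77.2 and 100.4 CPM in cKO libraries and 125, 155 and 112 CPM in controls (-0.59, SE 0.170, edgeR adjusted p = 0.0931). Agpat2, an acyltransferase of phosphatidic acid synthesis, changed by -0.58 (SE 0.190, adjusted p = 0.124). Both fell without cKO replicate 3, by 0.71 and 0.55 (SE 0.145 and 0.181, adjusted p = 0.00248 and 0.0352).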

How the data were processed

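Sorted UB cells from 3 cKO and 3 control samples were measured by stranded mRNA sequencing, per the labels. The authors deposited raw read counts and FPKM per gene; HISAT2, HTSeq, Cufflinks, DESeq and GRCm39 are named, without roles, in the submitters' processing notes. The deposited FPKM are the same counts rescaled for gene length and library (largest relative deviation 9.87e-09). Whether reads were counted by strand is not stated, so overlapping antisense reads may be included. Counts were tested with edgeR 4.0.16 in R 4.3.3 (filterByExpr, TMM, robust quasi-likelihood F-test, group as the only term; limma 3.58.1 and DESeq2 1.42.0 for alternatives), with Benjamini-Hochberg adjustment over all genes tested and calls at 0.05. SE is the size of the log2 fold change divided by the square root of F. The steps were tested on simulated counts in which no library lost genes as cKO replicate 3 did, so that feature was not covered. No pair of replicates agreed within sampling noise (chi-square over degrees of freedom, 9.90 to 71.7). Values are given for called genes, for the 2 genes with the smallest p in each list and for others chosen after their values were seen. A few related genes that this rule names are not reported here. Genes and lists were chosen with earlier results of these data known. Alternatives were size factors, tools, filters, log2(FPKM + 1 or 0.1), each library left out, and a replicate block.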

Additional observations from a re-analysis of the deposited data

How the results depend on the processing

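The number of calls depended on the libraries more than on scaling or filters. With 459 genes risen and 469 fallen, 0 and 1 of the 28 lipid synthesis genes, and 3 and 1 of the related genes by edgeR, DESeq2 gave 1029 and 1020 genes, 7 of the 28 fallen, and 5 and 6 related genes. Limma-voom with library weights gave 1594 and 1743 genes, 11 of the 28 fallen, and 8 and 17 related genes. On the log2(FPKM + 1) scale 696 genes rose and 709 fell, 2 of the 28 fell (Scd2 and Fads1) and 3 related genes fell; without a filter the same 2 of the 28 fell. With single libraries left out, 62 to 1865 genes rose and 59 to 2032 fell, 0 to 1 of the 28 rose (Scd1) and 0 to 11 fell, and 0 to 8 related genes rose and 1 to 18 fell. None of the 28 fell without cKO replicate 1 or any control, 1 without cKO replicate 2 and 11 without cKO replicate 3; the cause was not tested. The median change of the tested members kept its sign throughout, at -0.25 to -0.35 with a library left out. Among the 28 genes, signs turned for 7, none of them called. Mvd was at -0.086 and -0.10 on the log2(FPKM + 1) and log2(FPKM + 0.1) scales, -0.14 with the block and -0.35 to 0.43 with a library left out, and Dhcr7 at -0.10 with weights and -0.11 to 0.094. With a library left out, Fdft1 ran from -0.32 to 0.020, Lss from -0.34 to 0.11, Sc5d from -0.39 to 0.11, Insig1 from -0.68 to 0.048 and Fasn from -0.42 to 0.13. With the replicate number as a block, 12 genes rose and 11 fell, with 0 of the 28 and 0 related genes called. Of the 28, 9 had an unadjusted p under 0.05. The targeted gene Ash2l was not called with the block either (-2.50, edgeR adjusted p = 0.0537). A lack of calls in that fit therefore does not show a lack of change. Across all genes tested, same-numbered libraries did not deviate together (correlations of -0.022, 0.025 and -0.001). Over the members alone the correlations were 0.429 for replicate 1, -0.003 for replicate 2 and 0.177 for replicate 3. Differently numbered libraries ran from -0.377 to 0.189 over the members. These correlations do not settle whether libraries were paired. The labels do not say that the numbers pair libraries, so they were not taken as pairs.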

Other observations

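Most sterol genes were highest in the same control library. Control replicate 1 was the highest control for 16 of the 18 genes from Acly and the mevalonate route to cholesterol, and held the highest value for 35.6% of all genes tested. The pattern rests on 1 library and on ranks, some of them close, as for Hmgcs1 at 235, 229.6 and 225 CPM in controls. Among the cKO libraries, replicate 1 was the highest for 10 of these 18 genes, against 32.2% of all genes. Among the 6 tested fatty acid genes, control replicate 1 was the highest for 2. The Acly and mevalonate sum was 336 FPKM in control replicate 1 and 244 FPKM in control replicate 3. No label tells the controls apart other than by number.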
